A study of Mus musculus with 14 samples.

Results

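The genes described here are the expressed members of the mouse Zfp family of zinc finger protein genes in full-grown oocytes. They were chosen by name and level: a symbol made of Zfp and a number, without Zfp36 and Zfp57, and a mean of at least 5 CPM over the 14 libraries of the study. CPM, the unit of level used throughout, is the count of a transcript per 1000000 counts on all transcripts of its library, and a gene with several transcripts was represented by that of highest mean count. Levels per library or group were in addition scaled by TMM (trimmed mean of M values) factors over the 14 libraries, which lay between 0.941 and 1.02. The rule kept 191 of the 347 Zfp genes in the files, among 20337 genes with a symbol. Since the level chose them, the levels below are a description, and the genes just at the limit had means of 5.01 (Zfp534), 5.13 (Zfp93) and 5.20 CPM (Zfp964) inside it and 4.82 (Zfp959), 4.71 (Zfp971) and 4.70 CPM (Zfp352) outside it.

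Zinc finger proteins of the C2H2 type hold a zinc ion between a pair of cysteines and a pair of histidines in each finger, and arrays of such fingers read DNA, or in some members RNA. Many carry a KRAB domain, which recruits Trim28 and, through it, the histone methyltransferase Setdb1 and heterochromatin proteins, and KRAB zinc finger proteins are best known as repressors of transposable elements. The genes lie largely in clusters of recent duplicates. In the mouse oocyte, endogenous small interfering RNAs are cut by Dicer and loaded on Argonaute proteins, of which AGO2 is able to cleave the transcripts they pair with.

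RNA-seq was performed on oocytes with an intact germinal vesicle, from females of 4 to 6 weeks given 5 IU of equine chorionic gonadotropin (eCG) at 48 h before collection, each library being a pool of 20 oocytes from 3 mice per the labels. Controls for Ago2 were Ago2 fl/fl females without Cre (3 libraries). Ago2 ADH females (3 libraries) were Ago2 fl/ADH; Cre/+, so that after deletion of the floxed allele their oocytes had only an allele whose product binds small RNAs and cannot cleave. Ago2 null females (2 libraries) were Ago2 fl/fl; Cre/+ and lost both alleles. In both, Cre was driven by the oocyte promoter Zp3, so that deletion takes place in the growing oocyte and not in other tissues. Dicer WT and Dicer KO (3 libraries each) form a separate series, with Dicer1 deleted in oocytes only. The strain was mostly C57BL6, from a cross of 3 transgenic lines. Ago2 ADH and Ago2 null are compared with the same Ago2 fl/fl libraries. Since every Ago2 genotype had a sequencing lane of its own, the effects of lane and of genotype cannot be told apart.

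Libraries held 29380403 to 58285057 counts on transcripts, so that 3 counts, taken as the detection floor, were worth 0.0515 to 0.102 CPM. Summed over 10 oocyte genes (among them Zp1 to Zp3, Gdf9 and Bmp15), the level was 14164 to 16449 CPM in the Ago2 libraries, 11340 to 11430 CPM in Dicer WT and 10457 to 10809 CPM in Dicer KO. Summed over 10 granulosa cell genes it was 39.2 to 45.5 CPM in Ago2 fl/fl, 32.6 to 38.8 in Ago2 ADH, 29.5 to 30.6 in Ago2 null, 56.6 to 64.0 in Dicer WT and 51.1 to 53.6 in Dicer KO, most of it Cyp19a1, with Foxl2 and Amh at means under 0.1 CPM. The list did not move as one: in Ago2 ADH Cyp19a1 and Fshr fell (log2 fold changes of -0.50 ± 0.09 and -1.67 ± 0.47), Cyp11a1 rose 3.32-fold, and Inha and Kitl, at 1.97-fold and 1.01-fold, did not pass. The blood markers Hba-a1 and Ptprc together reached at most 0.0747 CPM. Ago2 itself had means of 24.7 CPM in Ago2 fl/fl, 13.1 in Ago2 ADH and 6.22 in Ago2 null, whereas the count over the whole Dicer1 transcript rose from 758 CPM in Dicer WT to 1804 CPM in Dicer KO, and since the deleted part is a fraction of that transcript this count does not check the Dicer label.

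The 191 genes were spread over 20 chromosomes and had a median level of 17.03 CPM, with 105 of them under 20 CPM and 19 over 100 CPM. The 10 highest held 34.7% of the summed level. In the annotated coding sequences of 190 of them, from none to 33 C2H2 fingers were found per protein, with a median of 11, and 6 proteins had no finger of the searched form. A KRAB-like stretch was found in 108 proteins, whose median was 12 fingers, and not in 82, whose median was 6.5. Many of the genes resemble each other closely: 50 had more than 10% and 14 more than 50% of their transcript in stretches of 50 bases that another gene also holds, while 61 had none. Counts of near-identical genes are uncertain, because reads with several alignments were left out of the transcript counts.

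The highest mean levels were those of Zfp277 (431 CPM), a binding partner of the Polycomb protein Bmi1, Zfp473 (392 CPM), whose human counterpart takes part in the 3′ end processing of histone messages, and Zfp592 (362 CPM), a subunit of a Zmynd8 corepressor complex. They were followed by Zfp930 (334 CPM), Zfp655 (268 CPM), Zfp750 (265 CPM), an epidermal differentiation factor, Zfp706 (202 CPM), Zfp68 (176 CPM), Zfp735 (164 CPM) and Zfp207 (161 CPM), which binds spindle microtubules and Bub3. Per kilobase of transcript the order differed: Zfp277 had 177, Zfp930 111, Zfp207 103, Zfp473 103 and Zfp750 82.0 CPM per kb, whereas Zfp592, on a longer transcript, had 49.6 CPM per kb. The means of Zfp473 and Zfp930 over all libraries rest on the mutants, as described below.

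In Ago2 ADH oocytes the family fell more often than it rose. Of 191 genes tested, 32 rose and 73 fell, that is 16.8% and 38.2%, where 20.5% of all 18835 transcripts tested rose and 20.1% fell (edgeR quasi-likelihood test, Benjamini-Hochberg adjustment, false discovery rate of 1%). The median log2 fold change was -0.20 for the family and 0.01 for all transcripts. Against the 11941 transcripts tested with a mean of at least 5 CPM, which are those of like level, 22.7% rose and 26.1% fell, with a median of -0.03. The changes were mostly small: 14 genes rose and 12 fell by 2-fold or more. In 137 genes no Ago2 ADH library overlapped with the controls, against 60.0% of all transcripts.

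Ago2 null oocytes, set against the same controls, had 31 genes up and 76 down of 191, a median of -0.24 and 148 genes without overlap, where 18.1% of all transcripts rose, 19.1% fell, the median was 0.00 and 66.9% did not overlap. Dicer KO oocytes, which have their own controls, had 34 genes up and 57 down of the 190 tested, a median of -0.18 and 129 genes without overlap, where 16.7% of all transcripts rose, 17.8% fell, the median was 0.00 and 54.7% did not overlap. Among transcripts with a mean of at least 5 CPM, which are those of like level, 21.0% rose and 25.7% fell in Ago2 null. In Dicer KO 19.5% of them rose and 23.6% fell, so the excess of falls in the family was smaller against these than against all transcripts. Their medians were -0.04 in both mutants. The share without overlap was not counted among transcripts of like level, here or in Ago2 ADH. By 2-fold or more, 16 genes rose and 13 fell in Ago2 null, and 16 rose and 11 fell in Dicer KO. Across the 3 mutants 21 genes rose in each, 41 fell in each and 52 passed the test in none. The share of all transcripts that did so in all 3 was not counted. In Ago2 ADH and Dicer KO alone, 12.5% of all transcripts rose in both and 13.7% fell in both. Ago2 ADH and Ago2 null also share their controls, so the counts over 3 mutants are a description.

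**Figure D1:**
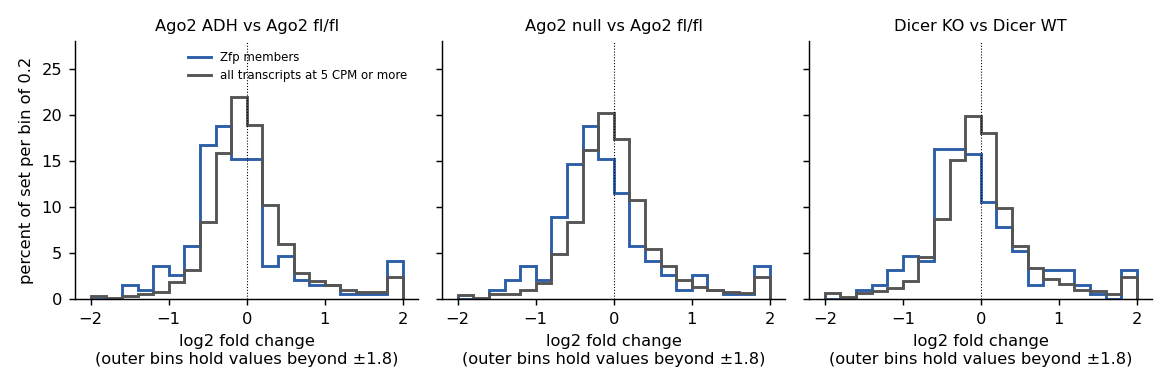
Share of genes (vertical axis, percent) in bins of 0.2 of the log2 fold change (horizontal axis) in Ago2 ADH, Ago2 null and Dicer KO against their controls, for the expressed Zfp genes and for all transcripts with a mean of at least 5 CPM. The outermost bins also hold values beyond 1.8 in either direction. The Zfp genes lie to the left of the other transcripts in each panel, with medians of -0.20, -0.24 and -0.18, and a few genes stand far to the right.

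Because the level over all libraries chose the genes, some genes reached it without their controls or without a mutant. In Ago2 fl/fl, 11 genes had a mean under 5 CPM, of which 6 rose and none fell in Ago2 ADH and 7 rose in Ago2 null. In Dicer WT there were 7 such genes, of which 3 rose in Dicer KO. Genes with a mean under 5 CPM in the mutant numbered 20 in Ago2 ADH, of which 10 fell and 2 rose, 17 in Ago2 null, of which 9 fell and 1 rose, and 9 in Dicer KO, of which 5 fell. The rule thus favoured some of the rises and some of the falls. Among the 180 genes with at least 5 CPM in Ago2 fl/fl, 26 rose and 73 fell in Ago2 ADH, and 24 rose and 76 fell in Ago2 null. Among the 184 with at least 5 CPM in Dicer WT, 31 rose and 57 fell in Dicer KO. A limit on the controls itself favours falls, so these counts are a description. The share of all transcripts under the same limit was not counted.

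Zfp930 and Zfp473 had the largest rises of the family in all mutants. Zfp930, a KRAB zinc finger gene on chromosome 8, had 28.3, 30.3 and 28.7 CPM in the Ago2 fl/fl libraries, 468, 538 and 548 CPM in Ago2 ADH and 524 and 576 CPM in Ago2 null. In the Dicer series it had 39.4, 35.6 and 34.7 CPM in WT and 678, 613 and 561 CPM in KO. Every mutant library thus stood more than 10 times above every control library of its series. The log2 fold change was 4.20 ± 0.07 (SE, 3 against 3 libraries, adjusted p = 1.57e-19, edgeR) in Ago2 ADH, an 18.4-fold rise, 4.28 in Ago2 null and 4.08 ± 0.08 in Dicer KO (adjusted p = 2.57e-17, edgeR). Zfp473, on chromosome 7, had 39.2, 43.0 and 40.4 CPM in Ago2 fl/fl, 592, 669 and 616 in Ago2 ADH, 659 and 678 in Ago2 null, 47.3, 41.5 and 47.7 in Dicer WT and 698, 683 and 660 in Dicer KO. Its log2 fold changes were 3.98 ± 0.06, 4.07 and 3.91, the first a 15.8-fold rise. The rises of these genes in Ago2 ADH and in Dicer KO differed by 0.07 ± 0.10 and 0.03 ± 0.09 on the log2 scale, which did not pass the test (adjusted p = 0.745 and 0.894, edgeR interaction).

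Zfp618, whose human counterpart binds the methylcytosine reader UHRF2, had 7.06 to 7.41 CPM in Ago2 fl/fl and 69.6 to 76.4 CPM in Ago2 ADH, 64.1 and 66.6 CPM in Ago2 null, 8.48 to 11.6 CPM in Dicer WT and 87.7 to 91.8 CPM in Dicer KO. It rose by 3.37 ± 0.08, 3.21 and 3.21 on the log2 scale. None of the searched stretches of its transcript is held by a transcript of another gene. Shorter matches and near copies with mismatches were not searched for, so whether its count depends on such a copy was not tested. Zfp869, which lies near Zfp930, had 4.70, 7.03 and 8.51 CPM in Ago2 fl/fl and 37.6 to 44.9 CPM in Ago2 ADH, and rose by 2.65 ± 0.14, 2.81 and 2.77. Neither gene had a control library that reached the mutant range.

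Zfp707, Zfp65, Zfp973 and Zfp970 were among the other large rises. Zfp707 had 1.66, 1.41 and 2.41 CPM in Ago2 fl/fl, 15.1, 9.87 and 11.4 CPM in Ago2 ADH and 11.8 and 15.2 CPM in Ago2 null, with log2 fold changes of 2.79 ± 0.19 and 2.93, so it is among the genes that reached the level limit through these mutants. In Dicer KO its libraries were scattered, at 1.19, 4.53 and 8.09 CPM against 2.24 to 2.74 CPM in WT, and the change of 0.89 ± 0.40 did not pass (adjusted p = 0.079, edgeR). The difference between its changes in Ago2 ADH and Dicer KO, 1.83 ± 0.51, did not pass either (adjusted p = 0.0257, edgeR interaction). Zfp65 rose by 2.26 ± 0.22 in Ago2 ADH, 2.47 in Ago2 null and 1.18 ± 0.29 in Dicer KO (adjusted p = 0.00284, edgeR), but its Dicer WT libraries ranged from 5.34 to 20.2 CPM, DESeq2 gave an adjusted p of 0.0809 there, and the call was lost without some of the libraries. Zfp973 and Zfp970, both on chromosome 2, rose by 1.81, 1.57 and 1.85 and by 1.27, 1.18 and 1.30. These values are uncertain, since 88.7% of the Zfp973 transcript and 57.2% of the Zfp970 transcript are shared with other genes.

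Of the genes highest in level, Zfp277 rose, with 263 to 293 CPM in Ago2 fl/fl, 544 to 589 CPM in Ago2 ADH, 557 and 571 CPM in Ago2 null, 230.2 to 284 CPM in Dicer WT and 518 to 577 CPM in Dicer KO, and log2 fold changes of 1.09 ± 0.05, 1.08 and 1.15. Zfp68, a KRAB gene, fell by 0.71 ± 0.06, 0.74 and 0.77 on the log2 scale, and Zfp207 fell by 0.48 ± 0.05, 0.56 and 0.41. Smaller falls were those of Zfp655 (-0.30, -0.38 and -0.35) and Zfp750 (-0.42, -0.50 and -0.31). Zfp592 fell in Ago2 ADH (-0.21 ± 0.04) and Ago2 null (-0.28), while in Dicer KO its value was -0.01 ± 0.07. Zfp735 passed the test in Ago2 null alone (0.22), with 0.18 in Ago2 ADH and 0.21 in Dicer KO, and that call was lost with a replicate block (adjusted p = 0.0698, edgeR), with all 5 groups in one fit (0.0428) and in 4 of 5 fits that left out a library. Zfp706, which restrains self-renewal in embryonic stem cells, passed in none, with values of -0.05 ± 0.05, 0.09 and -0.01.

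**Figure D2:**
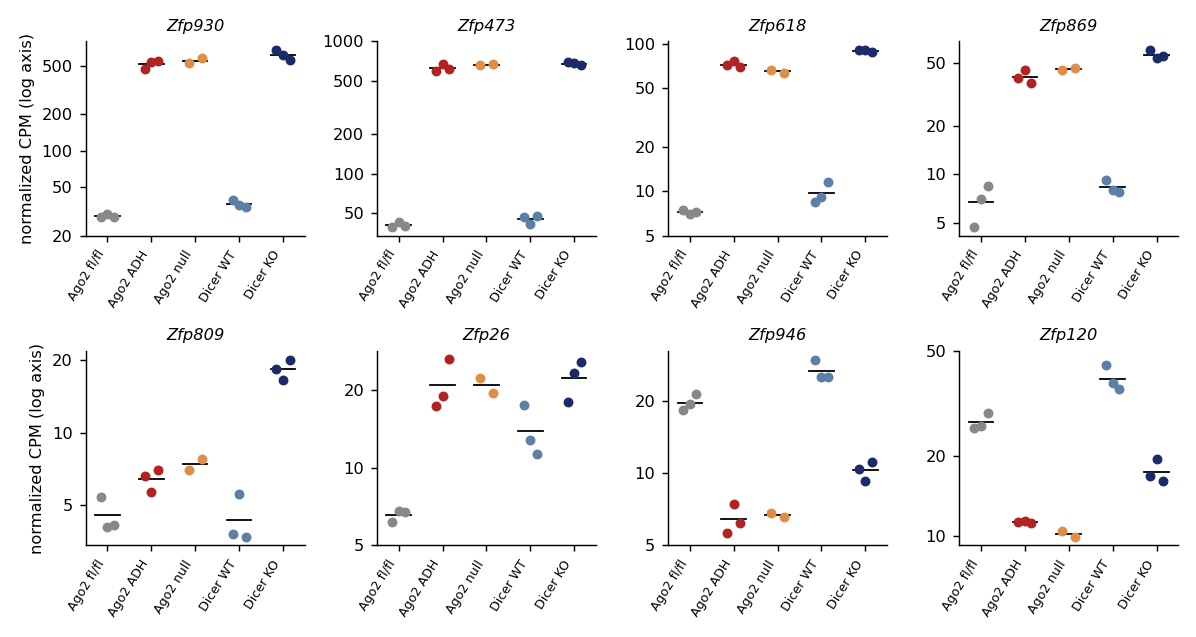
TMM-normalized CPM (vertical axis, log scale) in each library (dots) of the 5 genotypes, with the group mean as a line, for 8 Zfp genes. Zfp930, Zfp473, Zfp618 and Zfp869 lie well above their controls in all mutants, Zfp809 stands highest in Dicer KO and Zfp26 lowest in Ago2 fl/fl, and Zfp946 and Zfp120 lie below their controls in all mutants.

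The largest falls were smaller than the largest rises, the lowest log2 fold change being -1.59 (Zfp646 in Dicer KO). Zfp946, a KRAB gene on chromosome 17, had 18.3, 19.4 and 21.4 CPM in Ago2 fl/fl and 5.64, 7.45 and 6.18 CPM in Ago2 ADH, 6.84 and 6.60 CPM in Ago2 null, 29.9, 25.3 and 25.2 CPM in Dicer WT and 10.4, 9.30 and 11.2 CPM in Dicer KO. Its libraries did not overlap in any comparison, and the log2 fold changes were -1.57 ± 0.12 (adjusted p = 1.72e-09, edgeR), -1.51 and -1.37. Zfp120, on chromosome 2, had 25.6, 26.0 and 29.1 CPM in Ago2 fl/fl, 11.2, 11.3 and 11.1 CPM in Ago2 ADH and 10.4 and 9.89 CPM in Ago2 null, with changes of -1.21 ± 0.09, -1.37 and, in Dicer KO, -1.17. In both genes each mutant library lay below each control library.

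Zfp944, Zfp943 and Zfp820, also on chromosome 17, fell by 1.41, 1.20 and 1.33 on the log2 scale in Ago2 ADH, fell by 1.03, 1.17 and 0.81 in Ago2 null and fell by 1.34, 1.00 and 0.66 in Dicer KO. The falls of Zfp820 in Ago2 null and in Dicer KO were lost when single libraries were left out. Zfp534, the gene nearest the level limit, reached it through its controls, so the rule favoured its falls. It changed by -1.57, -1.43 and -1.58, but 70.4% of its transcript is shared with other genes. Outside such families, Zfp770 changed by -0.89, -1.24 and -0.95, Zfp423, a partner of Ebf1 known from preadipocytes, by -1.01, -1.22 and -0.71, Zfp646 by -1.06, -1.21 and -1.59, and Zfp790 by -1.11, -1.20 and -1.35.

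Falls were then counted by chromosome. Of the 24 family members on chromosome 17, none rose and 16 fell in Ago2 ADH, with a median log2 fold change of -0.55, none rose and 13 fell in Ago2 null (-0.48), and 1 rose and 9 fell in Dicer KO (-0.38). Among all 916 transcripts of that chromosome tested in Ago2 ADH, 18.7% rose and 16.6% fell, with a median of 0.03. Of the 19 that share at most 10% of their transcript with other genes, 12 fell in Ago2 ADH. The 167 members elsewhere still fell more often than they rose, 57 against 32 in Ago2 ADH, with a median of -0.17. On chromosome 7, which holds the most members, 4 of 40 rose and 15 fell in Ago2 ADH, where 19.8% of its 1402 transcripts tested rose and 17.3% fell. All 4 members on chromosome 10 and all 3 on chromosome X fell in Ago2 ADH as well, where 24.2% and 20.1% of the transcripts of these chromosomes fell. In Dicer KO 2 members fell on each, where 21.3% and 14.4% of the transcripts did. Those on chromosome 10 include Zfp781, whose count is uncertain and which was not tested in Dicer KO, as given below.

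Members less than 1 Mb apart were joined into runs, of which 11 held at least 4 genes. The longest, 14 genes at chr17:21008941-23193284 from Zfp160 to Zfp40 (GRCm38), had 11 falls and no rise in Ago2 ADH, with a median of -0.78, 10 falls and no rise in Ago2 null (-0.67), and 6 falls and 1 rise in Dicer KO (-0.45). The exception that rose was Zfp229, which is described below. A second run on chromosome 17, of 6 genes at chr17:32879221-33631716, had 3, 2 and 3 falls and no rise. A run of 9 genes at chr7:29768552-30107622 had 5, 6 and 3 falls, and 4 genes at chr10:81704747-82241280 had 4, 4 and 2 falls, neither with a rise. In contrast, 5 genes at chr8:69209018-69774911, among them Zfp930 and Zfp869, had 2, 3 and 2 rises and no fall. The other runs were mixed or had few calls. In Ago2 ADH, 8 genes on chromosome 13 had 2 rises and 2 falls, 9 genes on chromosome 4 had 1 and 3, 5 genes on chromosome 6 had 1 and 3, 8 and 4 further genes on chromosome 7 had 0 and 3 and 1 and 1, and 4 genes on chromosome 9 had 2 and 0. In Dicer KO the run on chromosome 4 had 3 rises and 4 falls. Runs were formed and described after their values had been seen, and they have no test.

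**Figure D3:**
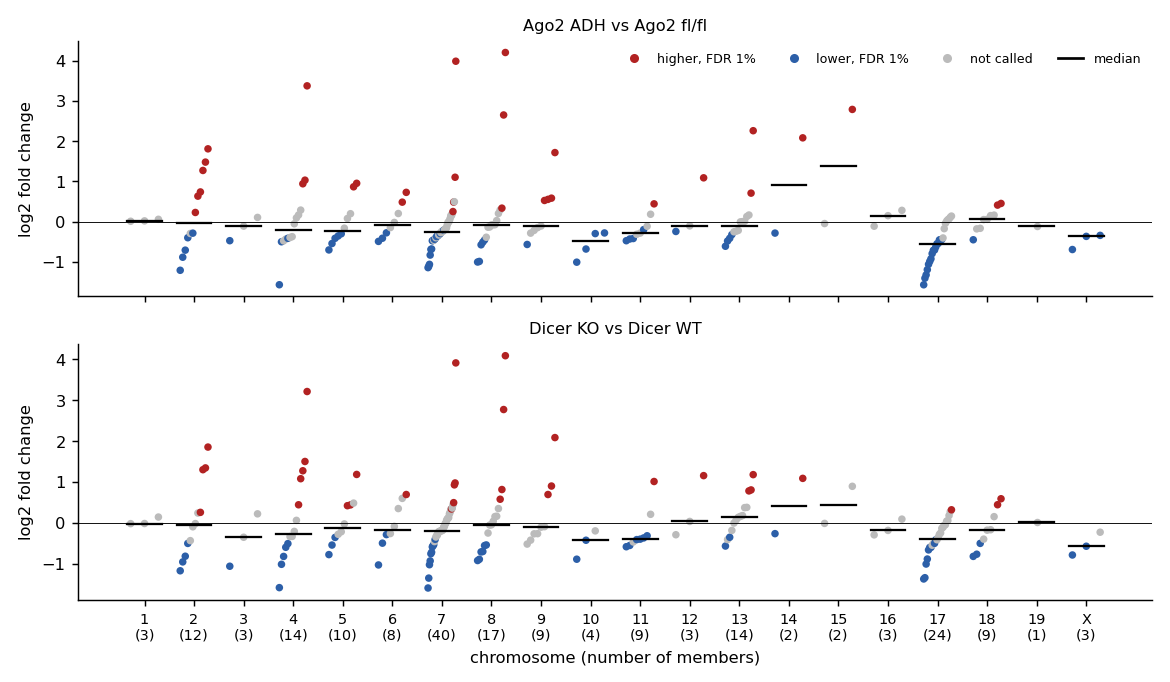
Log2 fold change (vertical axis) of each expressed Zfp gene (dots) by chromosome (horizontal axis), with the median per chromosome as a line, in Ago2 ADH and in Dicer KO. The dots of chromosome 17 lie mostly below 0, with medians of -0.55 and -0.38, and the highest dots are Zfp930 on chromosome 8 and Zfp473 on chromosome 7.

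Promoter windows, the 250 bases before the annotated start, were read from RefSeq on GRCm38.p6, which held one for 157 of the 191 genes. Duplicated genes can carry duplicated promoters: 44 of these genes, or 28.03%, shared at least 30 bases with the window of another gene, against 22.0% of all genes with a window. All genes were taken here whatever their level in oocytes, and genes of like level were not counted. Between members there were 19 such pairs of 16 genes, each pair on one chromosome. Windows of the chromosome 17 run are shown because they hold the longest shared stretch, and the genes were picked with their falls known. The window of Zfp943 at chr17:21962309-21962558 and that of Zfp758 at chr17:22361213-22361462, both on the plus strand and 398.654 kb apart, have an unbroken stretch of 198 bases in common, in capitals below, which no other window holds.
Zfp758: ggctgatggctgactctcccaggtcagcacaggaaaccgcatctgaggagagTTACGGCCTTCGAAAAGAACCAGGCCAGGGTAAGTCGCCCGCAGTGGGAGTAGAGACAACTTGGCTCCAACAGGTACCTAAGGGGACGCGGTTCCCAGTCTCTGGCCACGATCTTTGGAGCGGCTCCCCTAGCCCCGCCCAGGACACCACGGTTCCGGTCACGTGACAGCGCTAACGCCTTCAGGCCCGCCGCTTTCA
Zfp943: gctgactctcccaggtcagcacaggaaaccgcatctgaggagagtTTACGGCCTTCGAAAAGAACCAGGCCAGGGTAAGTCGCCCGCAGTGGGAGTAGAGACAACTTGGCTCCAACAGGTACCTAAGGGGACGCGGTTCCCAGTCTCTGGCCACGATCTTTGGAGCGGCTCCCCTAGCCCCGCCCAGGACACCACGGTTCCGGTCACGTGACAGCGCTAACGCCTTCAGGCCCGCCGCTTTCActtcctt
Each of these genes starts head to head with another member on the minus strand, Zfp758 with Zfp944 (windows overlapping by 62 bases) and Zfp943 with Zfp942 (94 bases), and the windows of Zfp942 and Zfp944 share 157 bases with each other. In Ago2 ADH the changes were -0.93 ± 0.16 for Zfp758, -1.41 ± 0.10 for Zfp944, -1.20 ± 0.12 for Zfp943 and -1.06 ± 0.09 for Zfp942, and in Ago2 null -0.72, -1.03, -1.17 and -1.11, all past the test. In Dicer KO, Zfp944, Zfp943 and Zfp942 fell by 1.34, 1.00 and 0.88 on the log2 scale, while Zfp758 had a value of -0.54 ± 0.17 (adjusted p = 0.0152, edgeR). The transcripts of these 4 genes share 3.97% to 10.4% of their stretches with other genes.

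The windows of Zfp970 at chr2:177464492-177464741 and Zfp973 at chr2:176670272-176670521, the longest shared stretch outside chromosome 17 and a pair that rose, share 144 bases, again in capitals and on the plus strand.
Zfp970: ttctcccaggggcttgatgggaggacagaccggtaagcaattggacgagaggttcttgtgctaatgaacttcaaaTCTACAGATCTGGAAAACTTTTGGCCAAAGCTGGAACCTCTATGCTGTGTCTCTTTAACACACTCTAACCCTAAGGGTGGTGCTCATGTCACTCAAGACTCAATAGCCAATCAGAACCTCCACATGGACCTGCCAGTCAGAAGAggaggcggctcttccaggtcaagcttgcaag
Zfp973: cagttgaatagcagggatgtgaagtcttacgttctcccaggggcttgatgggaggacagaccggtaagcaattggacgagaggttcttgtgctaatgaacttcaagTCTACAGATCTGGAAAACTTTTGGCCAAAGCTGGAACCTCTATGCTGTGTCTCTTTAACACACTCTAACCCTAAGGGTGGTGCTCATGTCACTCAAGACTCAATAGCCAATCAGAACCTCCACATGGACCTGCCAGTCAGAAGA
These hold 3 CG dinucleotides each, against 17 each in the windows of Zfp758 and Zfp943. Over the family the median number of CG in the richest window of a gene was 11, against 6 for all genes with a window. The latter were taken whatever their level, whereas the members were chosen by it, so this is not a comparison at like level. No window was given for Zfp930.

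Other members with shared windows moved in opposite directions. Zfp345, which shares 31 bases with the windows of both Zfp970 and Zfp973, had log2 fold changes of -0.71 ± 0.07 in Ago2 ADH and -0.81 ± 0.10 in Dicer KO, both past the test, where those genes rose. Zfp979 and Zfp982, with 42 bases in common, changed by 0.94 ± 0.06 and -0.50 ± 0.12 in Ago2 ADH and by 1.08 ± 0.08 and -1.01 ± 0.14 in Dicer KO, all past the test. Zfp980, which shares 62 bases with Zfp982 and 37 with Zfp534, rose by 0.44 ± 0.13 in Dicer KO, where the other two fell.

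Ago2 ADH and Dicer KO are comparisons that share no library, and the overlap of their calls was counted for the members and for all transcripts. Among the 190 genes tested in both, 25 rose in both (12.5% of all transcripts did) and 46 fell in both (13.7% of all transcripts). The shared rises were 78.1% of the 32 rises in Ago2 ADH and 73.5% of the 34 in Dicer KO, and the shared falls 63.9% of 72 and 80.7% of 57. Over all 18001 transcripts tested in both, the shares were 59.7% and 73.8% of the rises and 65.8% and 75.1% of the falls. Among these shares of the calls, only that of the Ago2 ADH rises, 78.1% against 59.7%, was far from that of all transcripts. Falls in both nevertheless made up a larger part of the members than of all transcripts, as falls did in each of the 2 mutants. The overlap was not counted among transcripts of like level. No member passed the test in opposite directions. Another 33 genes passed in Ago2 ADH alone and 20 in Dicer KO alone, which does not show that their changes differed. The log2 fold changes of the 2 mutants had a Spearman rho of 0.84 across the 190 genes and 0.74 across all transcripts, given as a description, since genes are not independent replicates.

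**Figure D4:**
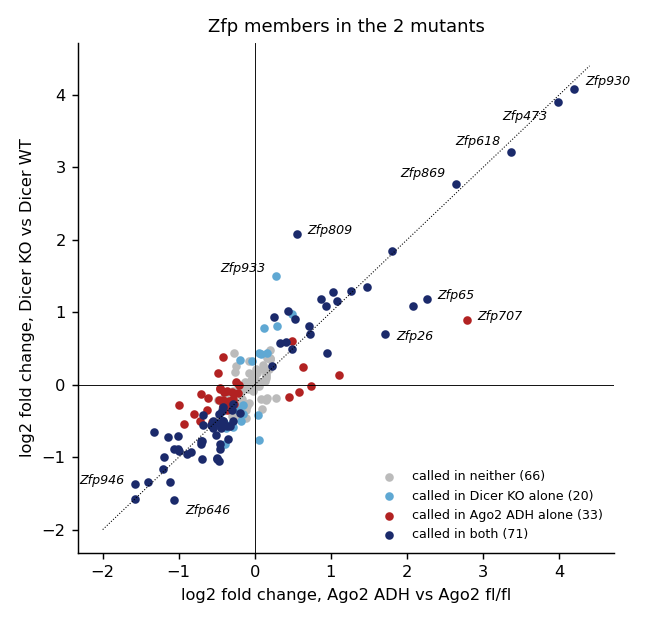
Log2 fold change in Dicer KO (vertical axis) against that in Ago2 ADH (horizontal axis) for the 190 expressed Zfp genes tested in both, coloured by whether they passed the test in both (71), in Ago2 ADH alone (33), in Dicer KO alone (20) or in neither (66). The dotted line marks equal change. Most genes lie near it, and Zfp809 and Zfp933 stand above it.

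The difference between the 2 effects was tested as an interaction, which 9 of 191 members passed, or 4.71% (3.55% of all transcripts and 5.10% of those with a mean of at least 5 CPM did), 1 with the larger value in Ago2 ADH and 8 with the larger value in Dicer KO. Over all transcripts, 1.20% passed in the former direction and 2.35% in the latter. Zfp809, a KRAB protein that binds the primer binding site of murine leukaemia virus and recruits Trim28, had 5.37, 4.06 and 4.13 CPM in Ago2 fl/fl and 6.57, 5.67 and 7.01 CPM in Ago2 ADH, but 3.80, 5.55 and 3.70 CPM in Dicer WT and 18.5, 16.6 and 20.1 CPM in Dicer KO. The groups did not overlap in either series, yet the rise was 0.55 ± 0.15 in Ago2 ADH and 2.08 ± 0.17 in Dicer KO, a difference of -1.59 ± 0.23 (adjusted p = 8.95e-05, edgeR interaction). Zfp809 had a control mean under 5 CPM in both series and so reached the level limit through the mutants. The rule thus favoured its rises, and with them its place in this list. The rise in Ago2 ADH lost its call in 4 of the 6 fits that left out a library, with an adjusted p of at most 0.0306.

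Zfp933 had 15.4 to 16.8 CPM in Ago2 ADH against 12.8 to 15.3 CPM in Ago2 fl/fl, a change of 0.28 ± 0.10 that did not pass. It rose by 0.56 ± 0.11 in Ago2 null (adjusted p = 0.000354, edgeR), and had 33.0 to 39.3 CPM in Dicer KO against 11.3 to 14.4 CPM in Dicer WT, a 2.83-fold rise. Its difference was -1.27 ± 0.15 (adjusted p = 6.23e-06, edgeR interaction). Zfp296, a partner of Klf4 in embryonic stem cells, rose in both, by 0.25 ± 0.06 and by 0.93 ± 0.07, with a difference of -0.73 ± 0.09. Its call in Ago2 ADH was lost in 2 of 6 fits that left out a library and with all 5 groups in one fit. Zfp26 had the opposite difference, 0.97 ± 0.23 (adjusted p = 0.00845, edgeR interaction). It rose from 6.17 to 6.77 CPM in Ago2 fl/fl to 17.3 to 26.2 CPM in Ago2 ADH (1.71 ± 0.14), whereas its Dicer WT libraries already had 11.3 to 17.4 CPM and those of Dicer KO 18.0 to 25.5 CPM (0.69 ± 0.15).

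The other members with a difference were Zfp710 (-0.77), Zfp759 (-0.69), Zfp939 (-0.59), Zfp708 (-0.48) and Zfp229 (-0.42). Zfp759 fell by 0.48 ± 0.10 in Ago2 ADH and had 0.16 ± 0.13 in Dicer KO. Zfp229 had -0.04 ± 0.06 in Ago2 ADH and rose by 0.32 ± 0.07 in Dicer KO. Zfp710 passed neither in Ago2 ADH (-0.28 ± 0.10) nor in Dicer KO (0.44 ± 0.15). Zfp708, a KRAB protein, fell by 0.61 ± 0.06 in Ago2 ADH and had -0.18 ± 0.07 in Dicer KO, but its transcript is shared in full with another gene. The calls of Zfp26, Zfp710 and Zfp759 were lost in 8, 9 and 11 of the 12 fits that left out a library.

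No member differed past the test between Ago2 ADH and Ago2 null oocytes. Of 191 tested (edgeR), 0 were higher and 0 lower in Ago2 ADH, where 0.119% of all 19306 transcripts passed, 0.0673% higher and 0.0518% lower, and 27 had an unadjusted p under 0.05. Log2 differences ran from -0.54 to 0.43 and 159 genes lay within 0.25 of 0. In 61 genes the libraries did not overlap, against 26.0% of all transcripts. DESeq2 called 1 gene, Zfp932, which had 75.4, 85.5 and 84.2 CPM in Ago2 ADH and 103 and 105 CPM in Ago2 null, against 90.4 to 97.3 CPM in Ago2 fl/fl, and whose difference of -0.35 had an adjusted p of 0.0431 by edgeR. Of its transcript, 55.5% is shared with other genes.

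The changes were also counted by the number of fingers. In Ago2 ADH the 31 members with 0 to 4 fingers had 7 rises and 8 falls and a median log2 fold change of 0.02, the 51 with 5 to 9 fingers 12 rises and 17 falls (-0.08), the 65 with 10 to 14 fingers 7 rises and 29 falls (-0.33), and the 43 with 15 or more 6 rises and 19 falls (-0.25). In Dicer KO the medians over the same classes were -0.03, -0.09, -0.35 and -0.10. The class of 10 to 14 fingers thus had the lowest median in both, and the class of 15 or more the next lowest. Of the 108 members with a KRAB-like stretch 17 rose and 48 fell in Ago2 ADH (median -0.27), and of the 82 without one 15 rose and 25 fell (-0.12). In Ago2 null both classes had a median of -0.24, and in Dicer KO the medians were -0.19 and -0.17. In Ago2 ADH the falls were 25.8%, 33.3%, 44.6% and 44.2% of the finger classes, in the order given. They were 44.4% of the members with a KRAB-like stretch and 30.5% of those without. Of all transcripts 20.5% rose and 20.1% fell, and of those with a mean of at least 5 CPM 22.7% rose and 26.1% fell. The class medians were not tested against each other.

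**Figure D5:**
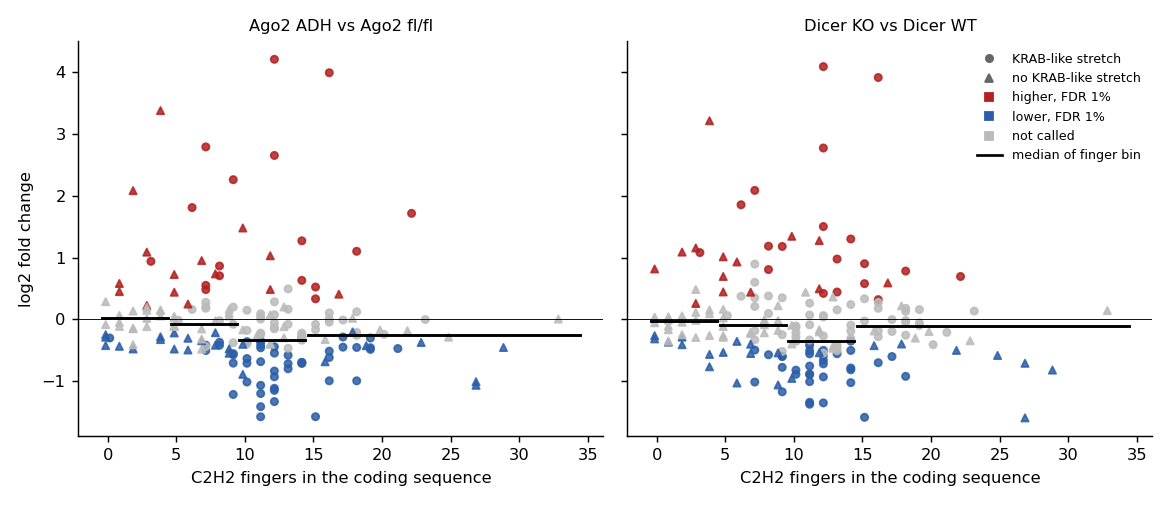
Log2 fold change in Ago2 ADH and in Dicer KO (vertical axes) against the number of C2H2 fingers found in the protein (horizontal axis) for the expressed Zfp genes, with circles for proteins with a KRAB-like stretch and triangles for those without, and lines for the medians of the 4 finger classes. The lowest median is that of 10 to 14 fingers, at -0.33 and -0.35.

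A list of 37 zinc finger genes with a known role was looked up whatever their change, of which 30 were members. In Ago2 ADH 8 of them rose, 6 fell and 16 did not pass, in Ago2 null 6 rose, 9 fell and 15 did not pass, and in Dicer KO the counts were again 6, 9 and 15. Of all transcripts, 20.5% rose and 20.1% fell in Ago2 ADH, 18.1% and 19.1% in Ago2 null and 16.7% and 17.8% in Dicer KO. Beside Zfp473, Zfp930 and Zfp277, the members that rose in all were Zfp644, which binds the histone methyltransferases G9a and GLP (0.95 ± 0.08, 0.87 and 0.44), and Zfp809. Zfp644 had 22.2 to 25.1 CPM in Ago2 fl/fl and 42.3 to 47.1 CPM in Ago2 ADH. Zfp106, an RNA-binding protein, rose in Ago2 ADH (0.23 ± 0.05) and Dicer KO (0.26). These calls were lost in 2 of 6 and 3 of 6 fits that left out a library, the first also with all 5 groups in one fit. Zfp217, a CtBP-binding corepressor, rose in Ago2 ADH (0.74 ± 0.12) and Ago2 null (0.45), and had -0.02 ± 0.11 in Dicer KO. Its call in Ago2 null was lost in 4 of 5 fits that left out a library (0.33 to 0.55, adjusted p of at most 0.0342, edgeR). Zfp609, a partner of the cohesin loader Nipbl, rose in Ago2 ADH alone (0.58 ± 0.11, with 0.13 in Ago2 null and -0.10 in Dicer KO).

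The members with a role that fell in all were Zfp207, Zfp131 (-0.33 ± 0.07, -0.44 and -0.57), Zfp90 (-0.58 ± 0.11, -0.72 and -0.55), Zfp830, a splicing factor needed in the early embryo (-0.43 ± 0.07, -0.51 and -0.37), and Zfp568, the repressor of a placental promoter of Igf2 (-0.35 ± 0.09, -0.79 and -0.75). Zfp568 had 29.9, 24.8 and 30.5 CPM in Ago2 fl/fl, 22.3, 20.4 and 22.0 CPM in Ago2 ADH and 17.3 and 14.7 CPM in Ago2 null, so no mutant library reached a control library. Zfp638, an RNA-binding protein that silences unintegrated retroviral DNA, and Zfp652 fell in Ago2 null (-0.36 and -0.43) and Dicer KO (-0.29 and -0.55), with -0.15 and -0.32 in Ago2 ADH. Zfp708 fell in both Ago2 mutants, as given above. Zfp335 fell in Ago2 null alone (-0.62), a call lost in 4 of 5 fits that left out a library (-0.98 to -0.33, adjusted p of at most 0.119, edgeR). The fall of Zfp652 in Ago2 null was lost in 4 of 5 such fits as well, that of Zfp568 in Ago2 ADH in 3 of 6, and that of Zfp830 in Dicer KO in 4 of 6 and with a replicate block (adjusted p = 0.0138, edgeR). Zfp143, an activator bound at many promoters (-0.40), and Zfp407 (-0.50) fell in Dicer KO alone. Zfp445, a KRAB protein that maintains imprints, did not pass in any, with -0.15 ± 0.09, -0.20 and -0.27.

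Other members of the list passed in no mutant. Zfp598, the ubiquitin ligase of collided ribosomes, had 52.2 to 56.2 CPM in Ago2 fl/fl and 52.2 to 56.5 CPM in Ago2 ADH, with changes of 0.06 ± 0.06, 0.05 and 0.04. Zfp281, a regulator of pluripotency, had 0.02 ± 0.12, -0.08 and -0.01, and Zfp148 had 0.15 ± 0.07, 0.00 and 0.09. Zfp110, Zfp318, Zfp330, Zfp384, Zfp410, an activator of Chd4, and Zfp687, a partner of Zfp592, had values between -0.29 and 0.22 in the 3 mutants. The genes of the list under the level limit were Zfp42, Zfp292, Zfp326, Zfp346, Zfp462 and Zfp622, and Zfp828 was not found by its symbol.

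The 26 genes of the KRAB corepressor pathway and of the heterochromatin proteins it recruits rose about as often as they fell. In Ago2 ADH 9 rose and 6 fell (median 0.11), in Ago2 null 7 rose and 7 fell (0.00), and in Dicer KO 7 rose and 5 fell (0.02). In either direction 57.7%, 53.8% and 46.2% of them passed, where 40.7%, 37.2% and 34.5% of all transcripts and 48.8%, 46.7% and 43.1% of those with a mean of at least 5 CPM did. Pphln1 and Fam208a, subunits of the HUSH silencing complex, rose by 1.56 ± 0.04 and 0.70 ± 0.08 in Ago2 ADH and by 1.73 ± 0.06 and 0.69 ± 0.09 in Dicer KO. The complex did not move as one: its subunit Mphosph8 fell in Ago2 ADH (-0.18 ± 0.05). In Ago2 null (-0.13) and Dicer KO (-0.24 ± 0.08) Mphosph8 did not pass. Pphln1 had 221 to 227 CPM in Ago2 fl/fl and 626 to 657 CPM in Ago2 ADH. Hdac1, a histone deacetylase, rose by 1.02 ± 0.11 and 1.93 ± 0.10. Hells, a chromatin remodeller, and the DNA methyltransferases Dnmt3a and Dnmt1 fell by 0.67 ± 0.07, 0.47 ± 0.05 and 0.46 ± 0.05 in Ago2 ADH and by 0.45 ± 0.09, 0.68 ± 0.07 and 0.49 ± 0.06 in Dicer KO.

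Other zinc finger families of the same level were set beside the Zfp genes. Of 21 Zbtb genes, whose proteins join fingers to a BTB domain, 4 rose and 3 fell in Ago2 ADH (median 0.06), 2 rose and 4 fell in Ago2 null (-0.10) and 2 rose and 4 fell in Dicer KO (-0.12). Of 11 Zscan and Zkscan genes, whose proteins hold a SCAN domain, 3 rose and 5 fell (-0.15), 2 rose and 3 fell (-0.17) and 2 rose and 5 fell (-0.27). Of the 156 Zfp genes under the level limit, 117 were tested in Ago2 ADH, with 15 rises, 11 falls and a median of 0.14. Of all transcripts with a mean of at least 5 CPM, 22.7% rose and 26.1% fell in Ago2 ADH. These shares were 21.0% and 25.7% in Ago2 null and 19.5% and 23.6% in Dicer KO. Over all transcripts whatever their level, 20.5% rose and 20.1% fell in Ago2 ADH. None of these lists was tested against the Zfp genes.

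Summed over the 191 genes, the level was 7156 ± 25.9 CPM (SD, n = 3 libraries) in Ago2 fl/fl, 7627 ± 108 in Ago2 ADH, 7609 ± 63.5 in Ago2 null (n = 2), 8096 ± 143 in Dicer WT and 9121 ± 227 in Dicer KO. Although most genes that changed fell, the sum was higher in the mutants. Zfp473 and Zfp930 held 0.978% of it in Ago2 fl/fl and 14.1% to 15.7% in the Ago2 ADH libraries, 15.6% and 16.4% in those of Ago2 null, 1.01% in Dicer WT and 14.2% in Dicer KO. Without them the sums were 7086, 6483, 6390, 8014 and 7823 CPM, lower in each mutant than in its controls. With both genes, the sums of each mutant did not overlap those of its controls. The rule chose the genes by their level, and some reached it through the mutants. The sums with both genes are thus a description without a test. The 2 genes are the largest rises in these same data, so leaving them out lowers the mutant sums by construction. The sums without them are therefore a description and have no test.

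The count for reads with several alignments, kept apart from the transcript counts, was 0.572 ± 0.021 (SD, n = 3) per transcript count in Ago2 fl/fl, 1.61 ± 0.044 in Ago2 ADH, 1.61 ± 0.063 in Ago2 null (n = 2), 0.458 ± 0.075 in Dicer WT and 1.03 ± 0.139 in Dicer KO. Since up to 100 alignments were kept for a read, this count may hold a read more than once and need not be a number of reads. The part of such reads in the values of these genes was not tested. The 140 members with at most 10% of their transcript shared had 23 rises and 60 falls in Ago2 ADH and a median of -0.23. The median GC content of the family was 43.6%, against 49.96% for all transcripts tested, and its Spearman rho with the log2 fold change in Ago2 ADH was 0.17 across 182 genes, against 0.11 across all transcripts. The granulosa cell genes moved with genotype as given above, and their part was not tested.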

How the data were processed

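RNA of pools of 20 mouse oocytes was amplified and sequenced in 14 libraries. The authors deposited counts of reads for each RefSeq transcript, not normalized. Per the study's methods and processing notes, paired-end reads were aligned to mm10 with TopHat2, with at most 100 alignments kept for a read, and counted by htseq-count (HTSeq 0.6.1) in its intersection-strict mode without strand, so overlapping and antisense genes cannot be told apart. The 5 summary lines per file (reads outside features, reads with several alignments and the like) stayed out of library totals.

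RefSeq IDs were paired with symbols through RefSeq (26081 IDs) and GENCODE (113), and 301 had none. Each comparison was fitted on its own libraries over all transcripts with edgeR 4.0.16 in R 4.3.3, with filterByExpr (minimum count 10, minimum total 15), TMM normalization, the quasi-likelihood test and Benjamini-Hochberg adjustment at a false discovery rate of 1% over all transcripts. The standard error is the absolute log2 fold change divided by the square root of F. CPM values per library or group, their sums and calls of overlap use TMM factors over all 14 libraries, while means over the 14 libraries and the level limit use unscaled CPM. The difference between Ago2 ADH and Dicer KO is an interaction over 12 libraries. C2H2 fingers (C, 2 to 4 residues, C, 12 residues, H, 3 to 5 residues, H) and KRAB-like stretches were searched by pattern in proteins translated from GENCODE coding sequences, and shared stretches are runs of 50 bases held by a transcript of another gene. Libraries of a group differed by more than sampling noise, so none was counted as a duplicate. Fits were tested on simulated counts. Other values came from Python 3.11.15, numpy 2.4.6, pandas 2.3.3 and scipy 1.17.1, and figures from matplotlib 3.10.9.

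The genes named are, in each mutant, the 6 largest rises and falls among genes past the test without overlap between groups, the 10 highest in mean CPM, members past the interaction test (at most 5 per direction) or the test between Ago2 ADH and Ago2 null, a list of genes with a known role, the 3 on either side of the level limit, and corepressor genes past the test in both series (the 6 largest). Zfp970, Zfp758, Zfp942, Zfp345, Zfp979, Zfp980, Zfp982, Zfp932, Zfp781, Zfp708, Zfp939, Zfp229, Mphosph8 and the runs were added after their values were seen. The members and lists were chosen with earlier results of these data known. Alternatives were DESeq2 1.42.0, RLE normalization, no filter, an FDR of 5%, 1 transcript per gene, all 5 groups in one fit, each library left out, and a replicate block. The restriction to members with at most 10% shared stretches was chosen after seeing the data. Libraries are pools, so p-values measure the spread between pools of 20 oocytes, and limits based on 3 counts cover counting error only. Less RNA per oocyte and fewer oocytes cannot be told apart in such pools.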

Additional observations from a re-analysis of the deposited data

Results flagged for a closer look

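The test of the difference between the Ago2 ADH and the Dicer KO effect was passed by 9 members (edgeR interaction, log2 scale, Ago2 ADH minus Dicer KO). The value was larger in Dicer KO for Zfp809 (-1.59), Zfp933 (-1.27), Zfp710 (-0.77), Zfp296 (-0.73), Zfp759 (-0.69), Zfp939 (-0.59), Zfp708 (-0.48) and Zfp229 (-0.42), and larger in Ago2 ADH for Zfp26 (0.97). The Ago2 and Dicer series also differ in controls and sequencing lanes, whose effects on these differences cannot be told apart from that of genotype.

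The count for reads with several alignments, which no comparison used, stood above the controls in every mutant, with means of 1.61 per transcript count in Ago2 ADH and 1.61 in Ago2 null against 0.572 in Ago2 fl/fl, and 1.03 in Dicer KO against 0.458 in Dicer WT. This count may hold a read more than once, as given above.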

How the results depend on the processing

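Over the named genes, 1524 repeats of 117 results under other settings gave 1429 with the same direction and side of the threshold, 95 that kept the direction and lost the call, and none that reversed. Leaving out 1 library gave 26 to 31 rises, 63 to 74 falls and medians of -0.23 to -0.19 in Ago2 ADH, 26 to 31 rises, 54 to 65 falls and -0.23 to -0.19 in Ago2 null, 25 to 35 rises, 51 to 54 falls and -0.20 to -0.14 in Dicer KO, no call and medians of 0.00 to 0.03 between Ago2 ADH and Ago2 null, and 0 to 4 calls up, 5 to 10 down and medians of -0.12 to -0.08 in the interaction. With a single Ago2 null library left, that library is assumed to vary like the controls. With all 5 groups in one fit the medians were -0.25 in Ago2 ADH and -0.27 in Ago2 null, and the interaction had 2 calls up. For members with at most 10% shared stretches the medians were -0.23 and -0.28, and Dicer KO had 22 rises. Between Ago2 ADH and Ago2 null, 1 member (Zfp932) was down with DESeq2, without a filter, with the replicate block and at an FDR of 5%. In the interaction, calls up were 7 with DESeq2, 3 with RLE, 6 without a filter and 8 at 5%, calls down 19 at 5% and 5 with the replicate block, and the median was -0.066 with DESeq2 and -0.066 with RLE. The causes of these shifts were not tested. Replicate numbers did not pair the libraries: deviations of same-numbered libraries had correlations of 0.018 to 0.041 for Ago2 ADH, -0.097 and -0.057 for Ago2 null and -0.160 to 0.044 for Dicer KO, and the replicate block gave 32 rises and 78 falls in Ago2 ADH, 28 and 57 in Ago2 null and 32 and 55 in Dicer KO.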

Other observations

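Zfp781, on chromosome 10, was the one member not tested in the Dicer series. It had 97.4 to 104 CPM in Ago2 fl/fl, 71.7 to 88.2 CPM in Ago2 ADH and 77.0 and 81.8 CPM in Ago2 null, and fell in both mutants (log2 fold change of -0.30 each). In Dicer WT it had 0.0517, 0.0996 and 0 CPM, and in Dicer KO 0 counts in all 3 libraries, which allows up to 0.0839 to 0.102 CPM per library. Since 96.3% of its transcript is shared with other genes, the count of this gene is uncertain, and the cause of the difference between the series was not tested.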
